A study of Mus musculus with 6 samples.

Results

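*Slc26a5*, *Chrna9*, *Chrna10*, *Kcnn2*, *Strip2* and *Lmod3* are genes for the electromotility of the outer hair cell and for its efferent synapse, together with a pair of further genes enriched in that cell. They were chosen by name, as 6 of the 51802 gene symbols in the data. For each symbol the read counts and the FPKM (fragments scaled to transcript length and sequencing depth) were summed over its transcripts.

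The data are bulk RNA sequencing of mouse cochleae at 2 months of age, with 3 wildtype and 3 *Pou4f3(Δ/+)* samples on a C57/BL6J strain background. *Pou4f3* encodes a POU-domain transcription factor of inner ear hair cells. The mutants carry 1 wildtype allele and 1 knock-in allele, in which a short deletion with an added stop codon models the human deafness DFNA15, and wildtype littermates served as controls. The knock-in allele is still transcribed and gives a truncated protein. It was built from 129/sv DNA in embryonic stem cells. The whole cochlea was extracted, so every value mixes hair cells with supporting cells, the lateral wall, neurons and blood cells of the bone. In such samples, fewer cells of a type and less RNA per cell cannot be told apart. The labels do not say how many cochleae or mice made up a sample, so p-values measure the spread between these samples.

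Outer hair cells amplify sound by changing their length. Prestin, the product of *Slc26a5*, is the motor in their side wall that follows the membrane voltage. Medial olivocochlear neurons of the brainstem hold this motion in check. They release acetylcholine onto a receptor assembled from the α9 and α10 nicotinic subunits, the products of *Chrna9* and *Chrna10*. Calcium that enters through it opens the SK2 potassium channel encoded by *Kcnn2*, and the cell hyperpolarises. *Strip2* encodes a protein that binds striatins, the scaffolds of a phosphatase and kinase complex. *Lmod3* encodes a leiomodin, which nucleates actin filaments and is best known from the thin filaments of skeletal muscle. The comparison asks whether the RNA of these genes differed between the genotypes at 2 months.

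None of the 6 genes passed the test between *Pou4f3(Δ/+)* and wildtype cochleae after adjustment over all genes. *Slc26a5*, *Chrna9*, *Chrna10*, *Strip2* and *Lmod3* had fitted log2 fold changes between -0.20 and 0.10, each with a 95% interval that spans 0. *Kcnn2* stood at 1.41-fold the wildtype level, with an interval of 1.07 to 1.86-fold. That value passed an unadjusted threshold only. The wildtype mean of the channel gene was 6.44 ± 2.10 FPKM and the mutant mean 9.19 ± 1.29 FPKM (SD, n = 3 each).

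Summed counts ranged from 14295069 to 17696784 per sample, and 17136 genes passed the filter on low counts. *Pou4f3* itself had 68, 72 and 88 counts in wildtype and 66, 97 and 52 in *Pou4f3(Δ/+)* samples. Both alleles add to these counts, so they do not check the genotype. General hair cell markers were present in every sample. Among them *Myo6*, a myosin motor of hair cells, was at 34.9 ± 5.10 FPKM in controls against 27.7 ± 1.16 FPKM in mutants (SD, n = 3 each). By FPKM every mutant sample lay below every wildtype sample for *Myo6*, while counts scaled to a common library total overlapped. *Coch*, the cochlin gene and a marker of the cochlea at large, was at 2349 ± 415 FPKM in controls and 2091 ± 59.1 FPKM in mutants (SD, n = 3 each). The *Pou4f3(Δ/+)* samples 1 and 2 stood apart in B cell markers: the summed FPKM of 10 such genes was 307 and 348 there, 186 in *Pou4f3(Δ/+)* sample 3 and 149 to 178 in wildtype. Without those 2 samples the log2 fold change was -0.27 for *Slc26a5*, 0.13 for *Chrna9*, 0.06 for *Chrna10*, 0.70 for *Kcnn2*, -0.11 for *Strip2* and -0.67 for *Lmod3*, in a fit that leaves 1 mutant sample and takes it to vary like the wildtype samples (edgeR, adjusted p = 1.00 for each). Over all genes, *Pou4f3(Δ/+)* sample 3 was nearer to each wildtype sample (chi-square of the counts per degree of freedom 7.34 to 14.6) than to *Pou4f3(Δ/+)* samples 1 and 2 (17.1 and 21.5). Without sample 3 the log2 fold change was 0.09 for *Slc26a5*, 0.07 for *Chrna9*, 0.13 for *Chrna10*, 0.39 for *Kcnn2*, -0.08 for *Strip2* and -0.01 for *Lmod3*, none of them called.

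The upstream sequences of the genes are shown because transcription of each starts at their right end, and because they differ in base composition and in the motifs they hold. They are the 250 bases before the start site that RefSeq gives on build GRCm38.p6, read 5′ to 3′ on the strand of the gene, for the 4 members printed. Transcripts starting within 5 bases of these sites held nearly all counts of *Slc26a5*, 90.9% of those of *Chrna9*, 98.4% of those of *Chrna10* and all of those of *Strip2*. Capitals mark GC boxes (GGGCGG) and CCAAT boxes (CCAAT), both searched on either strand.
Slc26a5, chr5:21865605-21865854, minus strand: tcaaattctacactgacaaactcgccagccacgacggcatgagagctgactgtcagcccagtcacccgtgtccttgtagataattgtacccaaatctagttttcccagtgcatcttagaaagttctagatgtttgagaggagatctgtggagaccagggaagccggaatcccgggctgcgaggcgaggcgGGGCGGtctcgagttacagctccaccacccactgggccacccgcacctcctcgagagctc
Chrna9, chr5:65966874-65967123, plus strand: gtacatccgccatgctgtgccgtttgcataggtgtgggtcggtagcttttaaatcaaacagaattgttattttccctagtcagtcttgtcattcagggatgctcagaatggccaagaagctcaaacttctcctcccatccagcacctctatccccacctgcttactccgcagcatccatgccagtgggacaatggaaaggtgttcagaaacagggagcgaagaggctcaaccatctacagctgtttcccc
Chrna10, chr7:102116714-102116963, minus strand: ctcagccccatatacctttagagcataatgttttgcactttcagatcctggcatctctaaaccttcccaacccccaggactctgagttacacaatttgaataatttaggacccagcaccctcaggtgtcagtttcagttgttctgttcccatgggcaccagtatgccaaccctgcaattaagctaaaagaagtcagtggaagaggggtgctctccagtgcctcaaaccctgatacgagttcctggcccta
Strip2, chr6:29916763-29917012, plus strand: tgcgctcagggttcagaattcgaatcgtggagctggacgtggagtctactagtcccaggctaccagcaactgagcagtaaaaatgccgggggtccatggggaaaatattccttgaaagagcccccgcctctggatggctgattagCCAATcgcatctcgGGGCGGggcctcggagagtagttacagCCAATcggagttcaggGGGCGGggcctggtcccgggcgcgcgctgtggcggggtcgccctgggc
The *Strip2* window was the richest in G and C of the 4, at 62.0%, a level above that of 76.7% of 32851 mouse promoter windows of that length. It holds 18 CpG dinucleotides, 2 GC boxes that begin 91 and 48 bases before the start, and 2 CCAAT boxes that begin 105 and 64 bases before it. The *Slc26a5* window has 56.0% G and C, 13 CpG dinucleotides and 1 GC box that begins 60 bases before the start. The windows of both receptor subunits are poorer, with 50.0% G and C and 5 CpG dinucleotides for *Chrna9* and 48.0% and 1 for *Chrna10*, and neither holds a GC or CCAAT box. Over all windows the median was 52.4% G and C with 6 CpG dinucleotides, and 32.7% held a GC box and 33.8% a CCAAT box. A TATA box (TATAAA), held by 12.4% of all windows, and the AT-rich homeodomain and POU cores TAATTA and ATTAAT, held by 4.84% and 4.39%, were not found in these 4 windows.

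The 6 genes covered a wide range of levels, and they kept nearly 1 order in every sample. *Kcnn2* was the highest by FPKM, *Strip2* the second, *Slc26a5* and *Chrna10* next and close together, and *Chrna9* and *Lmod3* the lowest. Within each sample, FPKM of *Kcnn2* was 1.86 to 4.29 times that of *Strip2*, and FPKM of *Strip2* was 1.40 to 1.98 times that of *Slc26a5*. The order of *Slc26a5* and *Chrna10* was not resolved, since their FPKM ratio ran from 0.692 to 1.68 and exceeded 1 in 2 of 6 samples. The same held for the bottom of the order, where the FPKM ratio of *Chrna9* to *Lmod3* ran from 0.887 to 3.77. Among all tested genes the wildtype mean FPKM of *Kcnn2* lay at percentile 42.0, that of *Strip2* at 26.5, that of *Slc26a5* at 19.5, that of *Chrna10* at 19.4, that of *Chrna9* at 7.35 and that of *Lmod3* at 4.08.

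**Figure D1:**
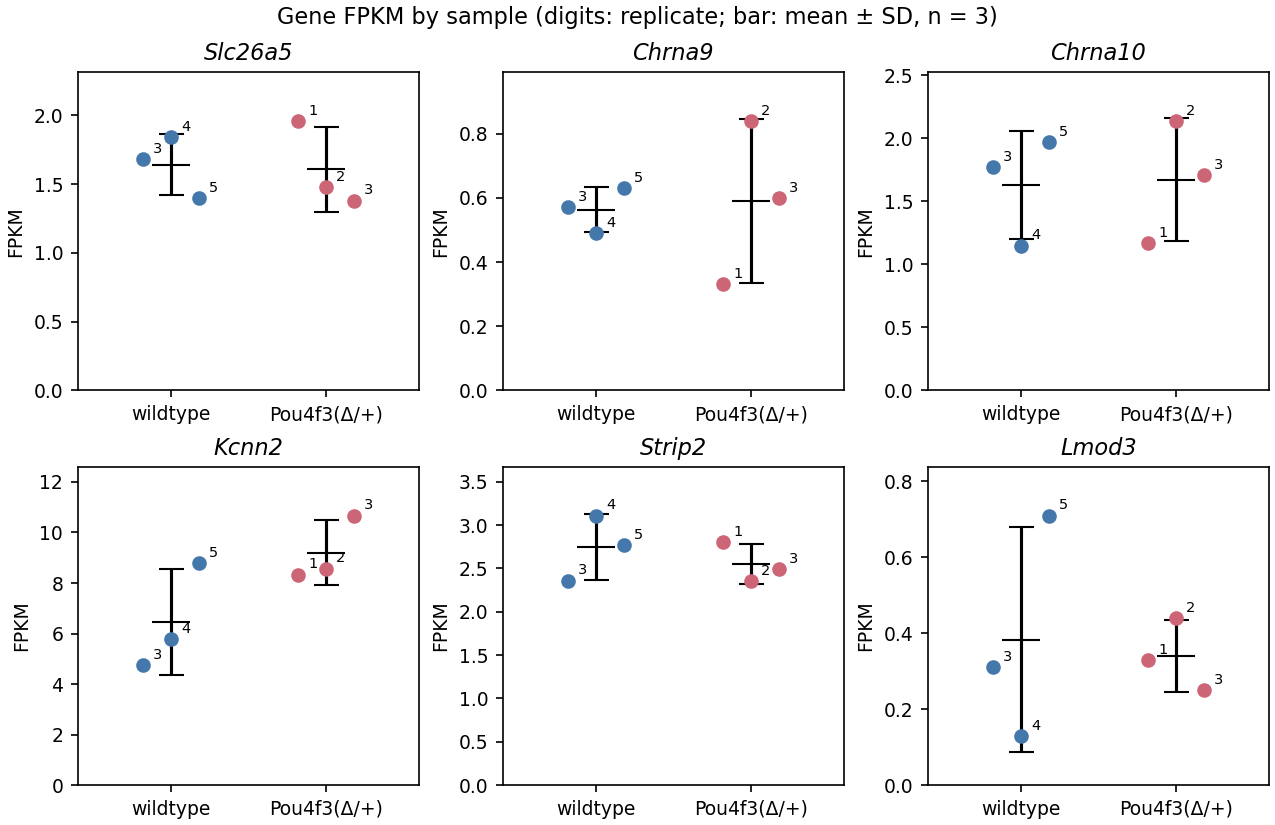
FPKM of each gene (y axis, from 0, a scale of its own per gene) in the 3 wildtype and 3 *Pou4f3(Δ/+)* samples, with points for samples, digits for their replicate number and bars for mean ± SD. The groups overlap in every panel, and *Kcnn2*, with wildtype at 4.75 to 8.79 and *Pou4f3(Δ/+)* at 8.33 to 10.67, overlaps least.

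*Slc26a5* (ENSMUSG00000029015, chromosome 5 from 21810655 to 21865604, minus strand), the prestin gene, had 1.68, 1.84 and 1.40 FPKM in wildtype samples 3, 4 and 5. It had 1.96, 1.48 and 1.38 FPKM in *Pou4f3(Δ/+)* samples 1, 2 and 3. Both the highest and the lowest value belonged to *Pou4f3(Δ/+)* samples, and the groups overlapped over the whole wildtype range. The means were 1.64 ± 0.223 and 1.61 ± 0.310 FPKM (SD, n = 3 each), and the log2 fold change was -0.02 (SE 0.22, edgeR's quasi-likelihood test, adjusted p = 0.981). Its 95% interval, from 0.699 to 1.39-fold, leaves out a drop to below 69.9% of the wildtype level and leaves smaller changes undecided. Each sample gave 60 to 103 counts of this gene.

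*Slc26a5* was read almost wholly as 1 of its 5 listed transcripts, ENSMUST00000030878, which held 100% of its FPKM in both groups. Its log2 fold change was -0.03 (SE 0.25, edgeR, adjusted p = 0.999). No exon of another annotated gene overlaps the exons of *Slc26a5*.

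*Chrna9* (ENSMUSG00000029205, chromosome 5 from 65934921 to 65977326, plus strand), the α9 subunit gene, was read from few counts. It had 12, 13 and 20 counts in wildtype samples 3, 4 and 5, which correspond to 0.57, 0.49 and 0.63 FPKM. It had 7, 24 and 15 counts, or 0.33, 0.84 and 0.60 FPKM, in *Pou4f3(Δ/+)* samples 1, 2 and 3. The mutant samples lay on both sides of the wildtype range. The means were 0.563 ± 0.0702 and 0.590 ± 0.255 FPKM (SD, n = 3 each), with a log2 fold change of 0.08 (SE 0.51, edgeR, adjusted p = 0.972). The 95% interval of 0.477 to 2.36-fold is wide. *Pou4f3(Δ/+)* samples 1 and 2 differed beyond counting error, with exact Poisson intervals of 2.81 to 14.4 and 15.4 to 35.7 counts, although sample 1 is the deeper library. Such intervals cover counting error only.

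*Chrna10* (ENSMUSG00000066279, chromosome 7 from 102111266 to 102116828, minus strand), the α10 subunit gene, had 1.77, 1.15 and 1.97 FPKM in the wildtype samples. It had 1.17, 2.14 and 1.71 FPKM in the *Pou4f3(Δ/+)* samples. Here too the groups overlapped, and the lowest values, in wildtype sample 4 and *Pou4f3(Δ/+)* sample 1, were nearly equal. The means were 1.63 ± 0.428 and 1.67 ± 0.486 FPKM (SD, n = 3 each), with a log2 fold change of 0.10 (SE 0.28, 95% interval 0.685 to 1.68-fold, edgeR, adjusted p = 0.944). Exons of *Chrna10* share 1025 bases with exons of *Art1*, a gene for an ADP-ribosyltransferase. The strand used in counting is not given in the sources used here, so reads over those bases cannot be assigned with certainty to either gene. *Art1* was at 0.44 to 0.98 FPKM over the wildtype samples and at 0.96 to 1.26 FPKM over the mutants, where *Chrna10* was at 1.15 to 1.97 and 1.17 to 2.14 FPKM.

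Within each sample, FPKM of *Chrna10*, summed over transcripts, was 2.35 to 3.55 times that of *Chrna9*. The mean ratio was 2.86 ± 0.444 in wildtype and 2.98 ± 0.512 in *Pou4f3(Δ/+)* samples (SD, n = 3 each), a difference smaller than either SD. The range of the ratio was wider on other readings, at 3.15 to 7.43 for counts and 2.35 to 8.36 for FPKM of the main transcript of each gene. *Pou4f3(Δ/+)* sample 1 was the lowest of the mutants for both subunits and sample 2 the highest. The transcript ENSMUST00000031108 held 79.3% of *Chrna9* FPKM in wildtype and 84.7% in *Pou4f3(Δ/+)*, with a log2 fold change of 0.16 (SE 0.73, edgeR, adjusted p = 0.999). A second *Chrna9* transcript, ENSMUST00000201814, held 18.3% and 10.2% but had too few counts to be tested. These group values hide a split between samples: *Chrna9* transcripts that start at the upstream place, from position 65934921, held 54.4% of its FPKM in wildtype sample 3, 57.6% in *Pou4f3(Δ/+)* sample 1 and 13.3% in *Pou4f3(Δ/+)* sample 3, from 4, 2 and 1 counts, and had no counts in the other samples. For *Chrna10*, ENSMUST00000084830 held 87.5% and 93.0% of the FPKM, with a log2 fold change of 0.12 (SE 0.33, edgeR, adjusted p = 0.999), and ENSMUST00000211408 held the other 12.5% and 6.97% and was not tested.

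*Kcnn2* (ENSMUSG00000054477, chromosome 18 from 45268860 to 45686024, plus strand), the SK2 channel gene, had the largest difference of the 6. It had 4.75, 5.79 and 8.79 FPKM in wildtype samples 3, 4 and 5, from 221, 222 and 344 counts. It had 8.33, 8.57 and 10.67 FPKM in *Pou4f3(Δ/+)* samples 1, 2 and 3, from 380, 317 and 390 counts. By FPKM, wildtype sample 5 lay above *Pou4f3(Δ/+)* samples 1 and 2, so the groups overlapped. On the scale of CPM (counts scaled to a common library total) after TMM, a normalization that balances the bulk of the genes between samples, the values were 12.9, 15.4 and 20.2 in wildtype and 21.5, 20.8 and 26.2 in *Pou4f3(Δ/+)*, and did not overlap. Wildtype sample 5 and *Pou4f3(Δ/+)* sample 2 were then separated by less than the spread inside either group. The log2 fold change was 0.50 (SE 0.17, 95% interval 0.10 to 0.89), with an adjusted p of 0.643 by edgeR's quasi-likelihood test. The unadjusted p of that edgeR test was 0.0193.

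Read against the whole table, *Kcnn2* was 1 of 664 genes, 3.87% of those tested, with a fitted rise at least as large. None of the 17136 genes passed the adjusted threshold of 0.05 by edgeR (0%), with a smallest adjusted p of 0.223, while 1309 (7.64%) had an unadjusted p under 0.05. By DESeq2, 64 genes passed (0.374% of those with an adjusted p), none of them a member. Of the 6 members, 0 passed the adjusted threshold by either tool and 1, *Kcnn2*, had an unadjusted p under 0.05 in the direction of a rise, in which 3.5% of all genes did. The CPM groups did not overlap for 1 of 6 members, against 12.7% of all genes. Of the 6, 3 had a fitted rise and 3 a fitted fall, and their median log2 fold change was 0.03, beside -0.003 over all genes tested.

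**Figure D2:**
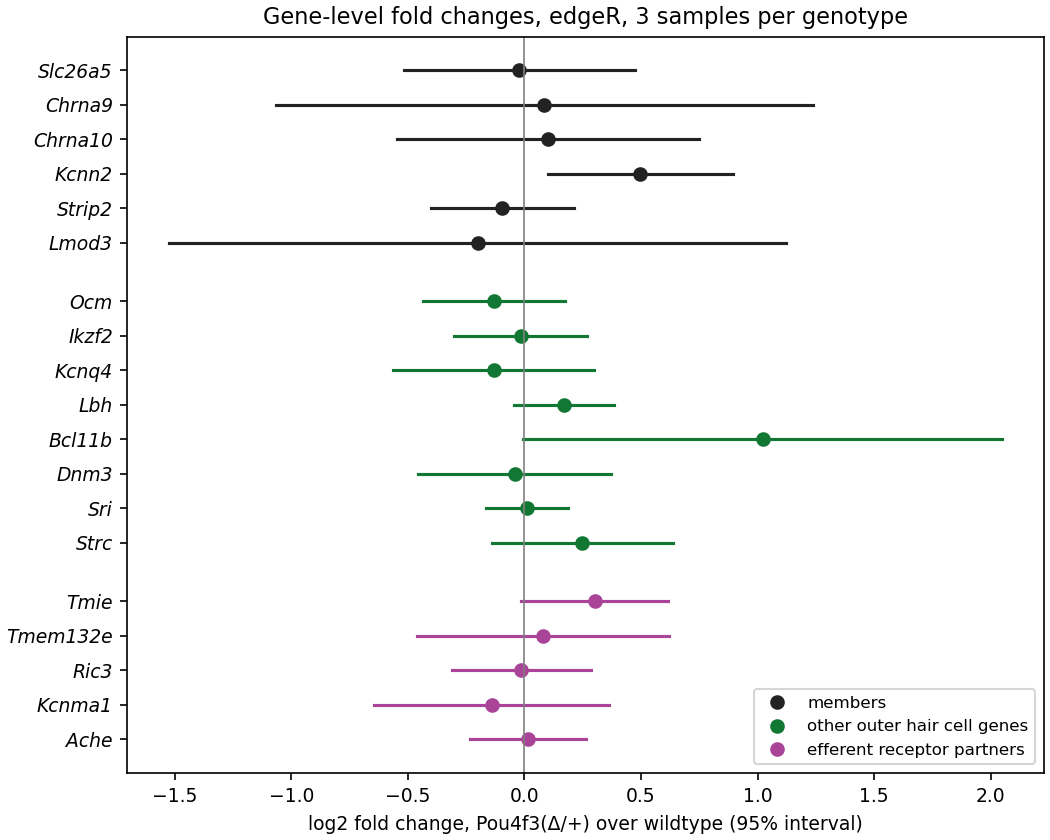
Log2 fold change of *Pou4f3(Δ/+)* over wildtype (x axis, points) with 95% intervals (lines) from edgeR, for the 6 genes, for other outer hair cell genes and for partners of the efferent receptor that passed the filter on low counts. Among the 6, only the *Kcnn2* interval, 0.10 to 0.89, lies to one side of 0, and those of *Chrna9* and *Lmod3* are the widest.

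The size of the *Kcnn2* difference depended on single samples, but its sign did not. Leaving out each sample in turn gave log2 fold changes from 0.36 to 0.69, with the lowest without wildtype sample 3 and the highest without wildtype sample 5. The unadjusted p was 0.0707 without wildtype sample 3, 0.0554 without wildtype sample 4 and 0.0611 without *Pou4f3(Δ/+)* sample 3 (edgeR). Without *Pou4f3(Δ/+)* samples 1 and 2, which held the most B cell RNA, the unadjusted p was 0.0185 (edgeR). With the B cell marker level as a covariate the log2 fold change of *Kcnn2* was 0.97 (edgeR, unadjusted p = 0.0045, adjusted p = 1.00), that of *Slc26a5* -0.44 and that of *Lmod3* 0.42. That level, a mean log2 CPM, was 3.94 to 4.50 in wildtype and 4.63 to 5.47 in *Pou4f3(Δ/+)* samples, without overlap. A fit of 6 samples therefore cannot separate it well from genotype. Over 15 alternative settings *Kcnn2* lay between 0.36 and 0.97 and *Strip2* between -0.19 and -0.01, and the other 4 genes had values on both sides of 0.

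**Figure D3:**
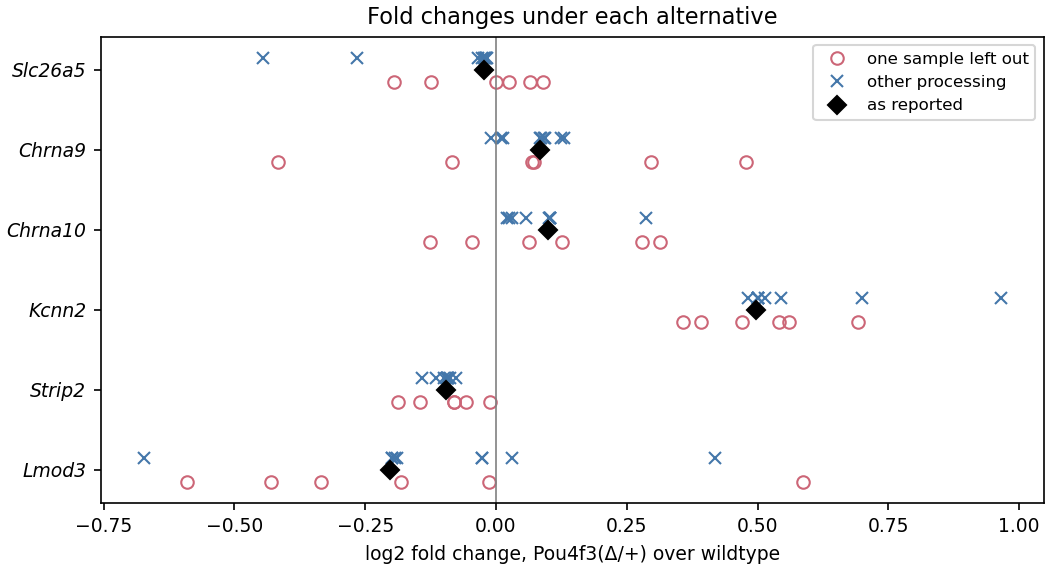
Log2 fold change of each gene (x axis) as reported (diamonds), with 1 sample left out (circles) and under other processing or sample choices (crosses). *Kcnn2* stays between 0.36 and 0.97 and *Strip2* between -0.19 and -0.01, while the other 4 genes fall on both sides of 0.

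*Kcnn2* transcripts start at 2 separate places, 291 kb apart. Of the 8 transcripts listed, 3 start at the upstream place, from position 45268860 of chromosome 18, and 5 at the downstream place, between 45559469 and 45560154. The upstream group had 2.01, 2.23 and 1.14 FPKM in wildtype and 3.13, 1.82 and 2.97 in *Pou4f3(Δ/+)* samples. The downstream group had 2.74, 3.56 and 7.65 FPKM in wildtype and 5.20, 6.75 and 7.70 in *Pou4f3(Δ/+)* samples. Both groups thus overlapped between genotypes, and the high *Kcnn2* level of wildtype sample 5 lay wholly in the downstream group. The downstream share of *Kcnn2* FPKM was 57.7%, 61.5% and 87.0% in wildtype and 62.4%, 78.8% and 72.2% in *Pou4f3(Δ/+)* samples, with means of 68.7% ± 16.0 and 71.1% ± 8.22 (SD, n = 3 each). The difference in that share gave p = 0.8 in a two-sided exact permutation test, and the difference in FPKM gave an exact permutation p of 0.3 for each group. With 3 samples against 3, the smallest p this test allows is 0.1.

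**Figure D4:**
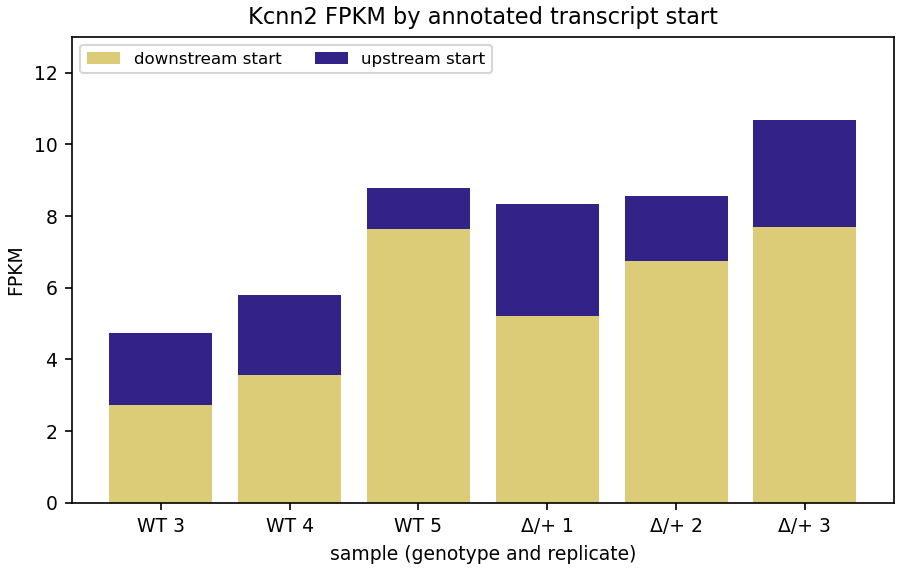
FPKM of *Kcnn2* (y axis) in each sample (x axis, WT for wildtype and Δ/+ for *Pou4f3(Δ/+)*, with replicate numbers), stacked by the annotated start of its transcripts. Wildtype sample 5 has 7.65 FPKM from the downstream start, near the 7.70 of *Pou4f3(Δ/+)* sample 3, and the least from the upstream start, 1.14.

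Neither of the 2 main *Kcnn2* transcripts passed a threshold. ENSMUST00000211323 held 67.7% of the FPKM in wildtype and 64.2% in *Pou4f3(Δ/+)*, with a log2 fold change of 0.43 (SE 0.42, edgeR, adjusted p = 0.999). ENSMUST00000183850 held 22.7% and 25.4%, with a log2 fold change of 0.67 (SE 0.49, edgeR, adjusted p = 0.999). Both values depended on single samples. The log2 fold change of ENSMUST00000211323 was 0.16 without wildtype sample 3 and 1.00 without wildtype sample 5 (edgeR, unadjusted p = 0.0195 for the latter). That of ENSMUST00000183850 was 0.40 without *Pou4f3(Δ/+)* sample 1 and 1.04 without *Pou4f3(Δ/+)* sample 2 (edgeR, unadjusted p = 0.0198 for the latter). Exons of *Kcnn2* also overlap those of the annotated genes A330093E20Rik and AC121957.1, by at most 323 bases. The former was at 0.34 to 0.55 FPKM, below *Kcnn2* in every sample.

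*Kcnn2* lies on the chromosome that carries the knock-in allele, 2.87 Mb from *Pou4f3* (chromosome 18 from 42394539 to 42397249). Among the 89 tested genes within 5 Mb of *Pou4f3*, a window set after the values were seen, 5 (5.62%) had an unadjusted p under 0.05 by edgeR, beside 7.64% of all genes. In the same window the CPM groups did not overlap for 15 genes (16.9%, beside 12.7% of all genes), and the median log2 fold change was -0.11, beside -0.003 over all genes. *Kcnn2* was fitted higher in *Pou4f3(Δ/+)* and the other 4, *Fgf1*, *Pcdhb22*, *Pcdhb9* and *Sema6a*, were fitted lower. Whether sequence linked to the knock-in allele differs between the groups at *Kcnn2* was not tested.

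*Strip2* (ENSMUSG00000039629, chromosome 6 from 29917012 to 29959681, plus strand) was the most evenly measured of the 6. It had 2.36, 3.11 and 2.77 FPKM in the wildtype samples, against 2.80, 2.35 and 2.49 FPKM in the mutants. All 3 mutant values lay inside the wildtype range, save 2.35 in *Pou4f3(Δ/+)* sample 2, just below it. The means were 2.75 ± 0.376 and 2.55 ± 0.230 FPKM (SD, n = 3 each), and the log2 fold change was -0.10 (SE 0.13, edgeR, adjusted p = 0.865). Its 95% interval of 0.757 to 1.16-fold was the narrowest among the members. The transcript ENSMUST00000046028 held 81.1% of the FPKM in wildtype and 80.9% in *Pou4f3(Δ/+)*, with a log2 fold change of -0.12 (SE 0.18, edgeR, adjusted p = 0.999).

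*Lmod3* (ENSMUSG00000044086, chromosome 6 from 97238534 to 97252759, minus strand) had the lowest mean FPKM in both groups, and its values rest on few counts. It had 12, 4 and 27 counts in wildtype samples 3, 4 and 5, and 13, 15 and 8 in *Pou4f3(Δ/+)* samples 1, 2 and 3. The whole range was set by the wildtype samples 4 and 5, at 0.13 and 0.71 FPKM, and the 3 mutant samples fell between them. The means were 0.383 ± 0.297 and 0.340 ± 0.0954 FPKM (SD, n = 3 each), with a log2 fold change of -0.20 (SE 0.58, 95% interval 0.347 to 2.18-fold, edgeR, adjusted p = 0.945). Its single listed transcript, ENSMUST00000095655, gave -0.19 (SE 0.69, edgeR, adjusted p = 0.999). The difference changed sign when wildtype sample 5 was left out, to a log2 fold change of 0.59.

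Because *Lmod3* is also a muscle gene, 12 skeletal muscle markers were read beside it. Their summed FPKM was 12.9, 9.97 and 11.5 in wildtype and 9.50, 9.16 and 13.6 in *Pou4f3(Δ/+)* samples. The sample with the most *Lmod3*, wildtype 5, was in the middle of that range, and the wildtype sample with the least, 4, was also the lowest wildtype sample in muscle markers. These sums weigh the most abundant markers most, and single markers differed. In wildtype samples 3, 4 and 5, *Actn3* had 12, 4 and 17 counts, highest in sample 5 like *Lmod3*. *Acta1* had 13, 0 and 6 counts there, highest in sample 3. Only 5 of the 12 markers passed the filter on low counts, with 1 fitted higher and 4 lower and none called. The most abundant were *Mybpc1*, a myosin-binding protein, at 5.83 FPKM in wildtype, and *Mylpf*, a fast myosin light chain, at 1.97 FPKM. The part of muscle RNA in the *Lmod3* values was not tested.

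Across the members, 28 transcripts were listed, of which 9 passed the filter on low counts and 7 had no counts in any sample. None of the 9 was called, among 38347 transcripts tested of which 0% were called, and 0 of the 9 had an unadjusted p under 0.05, beside 4.14% of all transcripts.

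Other genes of the outer hair cell, a list of 8, had no common direction. All 8 passed the filter, 4 were fitted higher and 4 lower, none was called, 0 had an unadjusted p under 0.05, and the median log2 fold change was -0.002. *Ocm*, which encodes the calcium buffer oncomodulin, went from a wildtype mean of 27.5 ± 1.19 FPKM to a mutant mean of 24.9 ± 3.41 FPKM (log2 fold change -0.13). *Sri*, the sorcin gene, and *Lbh*, a transcription cofactor gene, had the highest FPKM of the list, with log2 fold changes of 0.01 and 0.17. *Bcl11b*, the gene of a zinc finger factor that T cells also express, had the largest value, 1.02 (SE 0.45, edgeR, adjusted p = 0.643), from 78, 96 and 26 counts in *Pou4f3(Δ/+)* samples 1, 2 and 3. Its 2 high samples were those with the most B cell RNA, whose part in this value was not tested. *Strc*, the stereocilin gene, had means of 1.00 ± 0.0954 and 1.24 ± 0.0929 FPKM, with every mutant sample above every wildtype sample (log2 fold change 0.25, SE 0.17, edgeR, adjusted p = 0.722). Its CPM groups did not overlap either, as was so in either direction for 12.7% of all genes tested.

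Among partners of the efferent receptor, 5 of 6 were tested, with 3 fitted higher, 2 lower, none called, and a median log2 fold change of 0.02. *Ache*, the acetylcholinesterase gene, was at 17.3 ± 2.22 FPKM in wildtype samples and at 17.1 ± 0.623 FPKM in mutant samples (SD, n = 3 each). *Ric3*, the gene of a chaperone for nicotinic receptors, had 4.48 FPKM in both groups. *Tmie*, a gene of the hair cell transduction complex, gave the largest value, 0.30 (SE 0.14, edgeR, adjusted p = 0.647). *Kcnma1*, the gene of the BK potassium channel that also serves efferent inhibition, had a log2 fold change of -0.14. *Rapsn*, the gene of the clustering protein rapsyn, was at 0 to 28 counts per sample and was not tested.

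The families of the 6 genes were listed in full, as 30 genes of which 18 were tested. None was called, 0 had an unadjusted p under 0.05, 6 were fitted higher and 12 lower, and the median log2 fold change was -0.17. *Slc26a4*, the pendrin gene of the lateral wall, was at 28.5 ± 3.22 FPKM in wildtype samples and at 25.2 ± 6.99 FPKM in mutants, so the level of *Slc26a5* was far below that of its relative. Of the other small and intermediate conductance channel genes, *Kcnn4* had a log2 fold change of 0.25 (20.1 ± 1.98 to 23.6 ± 4.78 FPKM) and *Kcnn1* of -0.72 (SE 0.35, edgeR, adjusted p = 0.649), which is opposite in sign to *Kcnn2*. *Kcnn3*, read from 7 to 28 counts per sample, had a log2 fold change of -0.30 (SE 0.53). *Chrna1*, the muscle receptor subunit, was at 0.273 ± 0.0950 FPKM in wildtype samples and 0.167 ± 0.0451 FPKM in mutants.

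Of 16 general hair cell markers, 13 were tested (*Myo15a* and *Pjvk* are not among the symbols, and *Myo15* is), with 7 fitted higher, 6 lower, none called and a median log2 fold change of 0.06. *Gfi1*, a hair cell transcription factor gene that blood cells also express, had 14.3 ± 0.882 and 13.4 ± 1.56 FPKM. Of 4 inner hair cell markers, 1 was fitted higher and 3 lower, with a median log2 fold change of -0.09. The most abundant of these, the transcription factor gene *Tbx2*, was at -0.03, *Slc7a14* at -0.29, and *Otof*, the otoferlin gene, at -0.15. The 1 fitted higher, *Slc17a8*, was at 0.19. Each member was also set against the mean log2 CPM of the 13 general markers in the same sample, so that a change shared with these markers would cancel. The markers are not all specific to hair cells, as *Gfi1* shows, so this mean can also follow other cells. *Kcnn2* lay 0.40, 0.58 and 1.10 above the markers on the log2 CPM scale in wildtype and 1.19, 1.01 and 1.35 above them in *Pou4f3(Δ/+)* samples. The difference of the means was 0.49 (two-sided exact permutation test, p = 0.2, adjusted over the 6 genes 0.9). For the other 5 members, this relative difference was between -0.12 and 0.07, with exact permutation p of 0.3 to 1. These values depended on single samples: with each sample left out in turn, an alternative chosen after seeing the data, they ran from -0.53 to 0.58 for *Lmod3* (without wildtype sample 4 and without wildtype sample 5, respectively), -0.43 to 0.36 for *Chrna9*, -0.13 to 0.29 for *Chrna10*, -0.26 to 0.07 for *Slc26a5*, -0.21 to -0.06 for *Strip2* and 0.34 to 0.69 for *Kcnn2*.

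The nearest profiles were sought among 35 genes of the hair cell lists and the members, by the root mean square difference of log2 CPM over the 6 samples after centring each gene. *Slc26a5* was nearest to *Myo7a* (0.138), *Cdh23* (0.167) and *Ache* (0.178), where its own spread about its mean was 0.190. *Chrna9* was nearest to *Chrna10* (0.343), then *Otof* and *Ocm*, and *Chrna10* to *Ocm* (0.245), *Sri* and *Espn*. *Kcnn2* was nearest to *Tmc1* (0.201), *Espn* (0.207) and *Slc17a8* (0.231), and *Lmod3* to *Chrna10* (0.456), *Espn* and *Tmc1*. For *Strip2* the nearest, *Tbx2* at 0.124, was no nearer than a flat profile, since the spread of *Strip2* itself was 0.122.

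**Figure D5:**
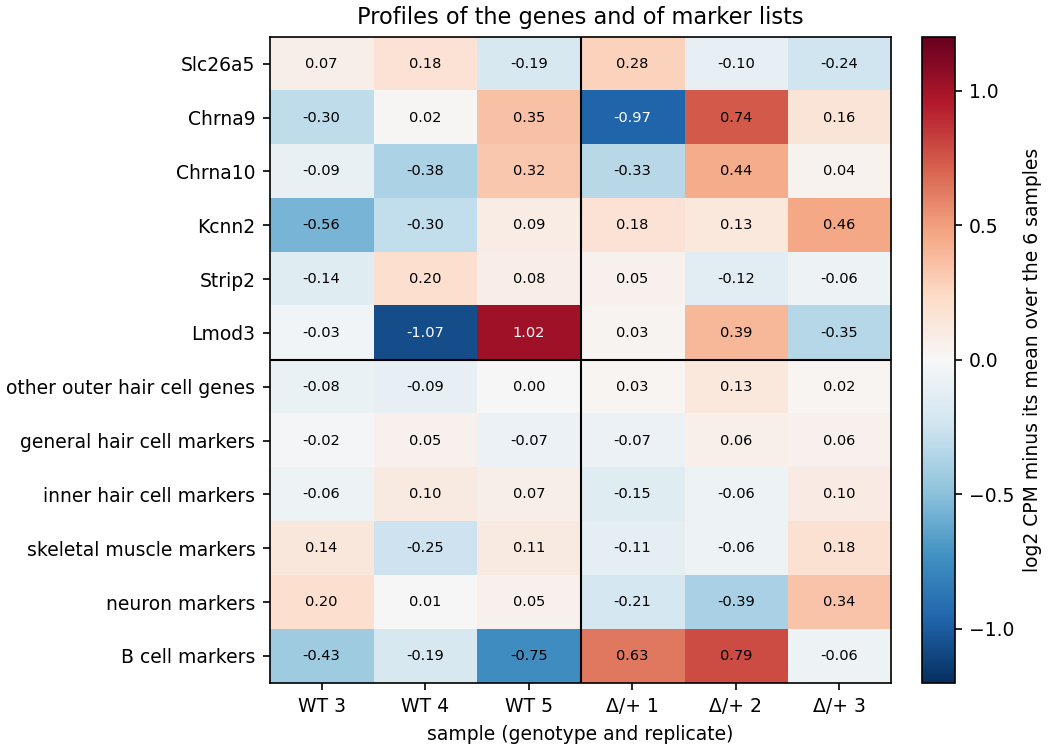
Log2 CPM minus its mean over the 6 samples (colour and printed value) for each of the 6 genes and for the mean of each marker list, by sample (columns, WT for wildtype and Δ/+ for *Pou4f3(Δ/+)*). *Kcnn2* rises from -0.56 in wildtype sample 3 to 0.46 in *Pou4f3(Δ/+)* sample 3, while the B cell markers are highest in *Pou4f3(Δ/+)* samples 1 and 2.

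Of the marker lists read beside the 6 genes, B cell markers had the largest median change. All 10 B cell markers were fitted higher in *Pou4f3(Δ/+)*, 9 with an unadjusted p under 0.05, and their median log2 fold change was 0.86, with none called by edgeR. *Cd79a* and *Cd79b*, the signalling chains of the B cell receptor, went from 42.5 ± 4.77 to 79.9 ± 33.7 FPKM and from 29.5 ± 3.23 to 54.3 ± 16.5 FPKM (SD, n = 3 each). Among the others with an unadjusted p under 0.05, *Ms4a1*, *Pax5*, *Vpreb1*, *Vpreb3*, *Igll1* and *Blnk* had log2 fold changes of 0.44 (*Blnk*) to 1.88 (*Igll1*). Of 9 cochlear markers, 2 potassium channel genes of the stria vascularis had an unadjusted p under 0.05, *Kcnq1* with a log2 fold change of -0.45 and *Kcne1* with -0.84 (edgeR, adjusted p = 0.643 each). *Gjb2*, the gap junction gene, was second to *Coch* in level and had a log2 fold change of -0.29. The 8 neuron markers, 2 fitted higher and 6 lower, had a summed FPKM of 619 to 678 in wildtype and 501 to 698 in *Pou4f3(Δ/+)*. The most abundant of them were *Snap25*, a synaptic vesicle fusion gene, at a log2 fold change of -0.14, and the neurofilament gene *Nefh* at -0.20. *Kcnn2* was highest in *Pou4f3(Δ/+)* sample 3, where B cell markers were lowest among the mutants and neuron markers were highest of all samples. Neuron markers were lowest in *Pou4f3(Δ/+)* sample 2, where *Kcnn2* was still above every wildtype sample on CPM. Beyond the fits above with the B cell covariate or without *Pou4f3(Δ/+)* samples 1 and 2, the part of these cell types in the member values was not tested.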

How the data were processed

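RNA-seq of mouse cochleae, 3 wildtype (replicates 3, 4 and 5) and 3 *Pou4f3(Δ/+)* samples (1, 2 and 3), was analysed from the deposited files. The authors deposited expected counts per transcript, which are estimates and not normalized, and FPKM per transcript. The FPKM values agreed within 1% with counts divided by spliced length and summed counts for 94.3% to 94.5% of values over 200 counts. The submitters' notes name mm8 and DESeq2. Of the transcript identifiers, 99.6% were found in GENCODE M21, whose GRCm38 positions are given, and the aligner and counting program are not given in the sources used here. Counts were summed over transcripts per gene symbol and rounded. edgeR 4.0.16 in R 4.3.3 (filterByExpr with minimum count 10 and minimum total 15, TMM, quasi-likelihood test, all 6 samples, no covariates, Benjamini-Hochberg over all genes or transcripts) gave the tests, and standard errors are the log2 fold change over the square root of F. Log2 CPM used a prior count of 2. The alternatives were DESeq2 1.42.0, other scaling factors, no filter, limma 3.58.1 on log2(FPKM + 0.1, 0.5 or 1), the mean B cell marker level as a covariate, and leaving out samples. Exact permutation tests over samples used SciPy 1.17.1 in Python 3.11.15. The edgeR test, but not DESeq2, was run on simulated data. No 2 samples agreed within counting noise (chi-square per degree of freedom 7.34 or more). The gene lists and members were chosen with earlier results of these data known. Of each list, the 2 genes with the highest mean FPKM and any with an unadjusted p under 0.05 are named, except 1 that is not reported here. Other genes named were picked after their values were seen, as was the 5 Mb window.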

Additional observations from a re-analysis of the deposited data

How the results depend on the processing

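No paired analysis was possible because the labels do not pair samples between the groups. None of the 6 genes was called under any of 15 alternatives. *Kcnn2* kept its sign in all 15 and had an unadjusted p under 0.05 in 12, with adjusted p of 0.311 or more (edgeR, DESeq2 or limma), and *Strip2* kept its sign in all 15. The other 4 changed sign with single samples: leaving out each sample in turn gave log2 fold changes of -0.19 to 0.090 for *Slc26a5*, -0.42 to 0.48 for *Chrna9*, -0.13 to 0.31 for *Chrna10* and -0.59 to 0.59 for *Lmod3*. Their main transcripts followed, with -0.19 to 0.072 for ENSMUST00000030878 of *Slc26a5*, -0.45 to 0.60 for ENSMUST00000031108 of *Chrna9*, -0.11 to 0.35 for ENSMUST00000084830 of *Chrna10* and -0.61 to 0.61 for ENSMUST00000095655 of *Lmod3*. With log2(FPKM + 0.1) in limma, *Chrna9* was at -0.0095 and *Lmod3* at 0.030, and with the B cell covariate *Lmod3* was at 0.42. Set against other outer hair cell genes instead of general hair cell markers, *Chrna10* was at -0.016 and *Lmod3* at -0.061, and on log2(FPKM + 0.5) *Chrna9* was at 0.0084 and *Lmod3* at -0.028. Counts of called genes over the whole table were 64 with DESeq2, 9 without the filter, 1 with log2(FPKM + 0.1), 2 with the B cell covariate, 6 without both *Pou4f3(Δ/+)* samples 1 and 2, and 0 to 193 with each sample left out in turn (3 without wildtype sample 4 and 193 without *Pou4f3(Δ/+)* sample 3). Over the gene lists, 6 genes were called with DESeq2 (5 of them B cell markers) and 0 to 8 with each sample left out (8 without *Pou4f3(Δ/+)* sample 3, 6 of them B cell markers). The cause of these changes was not tested. *Chrna9* and *Lmod3* rest on the fewest counts, 4 to 27 per sample, and their samples also differed beyond counting error.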
